A study of Homo sapiens with 12 samples.

Results

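The genes described here are the family of suppressors of cytokine signalling, 9 genes found by symbol among 26006 gene rows of a deposited expression table: SOCS1, SOCS2, SOCS3, SOCS4, SOCS5, SOCS6, SOCS7, CISH and the antisense RNA gene SOCS2-AS1. The table held RNA sequencing of LM2 cells, a breast cancer line derived from MDA-MB-231 that seeds the lung. Its 12 libraries formed 4 groups of 3: cells transduced with a short hairpin RNA (shRNA) against EZH2, cells transduced with a scramble shRNA, cells transfected with a small interfering RNA (siRNA) against ZRANB1, and cells transfected with a scramble siRNA. EZH2 is the histone methyltransferase of Polycomb repressive complex 2 and ZRANB1 is a deubiquitinase; all 4 groups carried an RNA reagent, the line was the same, and the labels gave no number of hairpins, clones or separate cultures. The family was chosen by its mean FPKM in the 4 groups, which were known when it was put forward. Its values in all comparisons below are therefore a description with no test, and statements that a member was called refer to the fit across all genes and are not evidence about the family.

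SOCS proteins are feedback inhibitors of cytokine receptors. Cytokine binding activates Janus kinases (JAKs), which phosphorylate STAT transcription factors; STATs enter the nucleus and induce genes that include CISH, SOCS1, SOCS2 and SOCS3. The proteins carry an SH2 domain that binds phosphotyrosine and a SOCS box that recruits elongins and the scaffold cullin 5, so that the bound target is ubiquitinated. SOCS1 and SOCS3 also inhibit JAKs directly, SOCS2 is best known as the inhibitor of growth hormone signalling, and SOCS4 to SOCS7 are linked more to receptor tyrosine kinases and insulin signalling.

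The promoters of 3 cytokine-induced members are shown because the STAT recognition motif TTCNNNGAA was found in the window of CISH, the protein-coding member with the lowest level in each group, and not in the other windows at hand. The sequences are those of RefSeq (GRCh38.p14), from 250 bases before to 50 bases after the annotated gene start, printed 5′ to 3′ on the strand of the gene (the minus strand for all 3). Capitals mark each match to TTCNNNGAA, which reads the same on both strands. The CISH window is chr3:50611725-50612024, that of SOCS1 chr16:11256155-11256454 and that of SOCS3, for its upstream start, chr17:78360876-78361175.
CISH: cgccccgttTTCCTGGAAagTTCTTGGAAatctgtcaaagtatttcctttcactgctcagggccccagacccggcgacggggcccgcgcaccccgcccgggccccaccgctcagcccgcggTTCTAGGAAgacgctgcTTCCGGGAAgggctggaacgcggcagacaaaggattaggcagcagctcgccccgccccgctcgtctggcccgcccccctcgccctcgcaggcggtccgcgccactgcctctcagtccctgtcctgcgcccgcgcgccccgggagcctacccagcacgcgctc
SOCS1: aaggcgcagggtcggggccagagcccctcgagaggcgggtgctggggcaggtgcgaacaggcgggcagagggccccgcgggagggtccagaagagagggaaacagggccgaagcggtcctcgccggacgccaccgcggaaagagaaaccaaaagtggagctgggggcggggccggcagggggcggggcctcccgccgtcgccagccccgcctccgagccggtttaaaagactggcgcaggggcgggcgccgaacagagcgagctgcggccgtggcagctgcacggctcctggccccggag
SOCS3: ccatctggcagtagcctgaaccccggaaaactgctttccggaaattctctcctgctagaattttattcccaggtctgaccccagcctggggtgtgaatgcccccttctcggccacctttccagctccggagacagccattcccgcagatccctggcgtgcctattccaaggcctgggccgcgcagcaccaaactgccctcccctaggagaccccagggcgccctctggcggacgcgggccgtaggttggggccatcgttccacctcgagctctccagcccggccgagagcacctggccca
The CISH window held 4 matches, which start 241, 230, 129 and 112 bases before the gene start. The windows of SOCS1 and SOCS3 held 0 matches, as did those of SOCS4 and SOCS6 and a second SOCS3 start; 5 members matched the promoter table. Of 35116 promoter windows of this length, 7.66% held the motif. A match is a run of letters and no evidence of binding, and these windows leave the rest of each gene unread. The SOCS3 windows, chr17:78360876-78361175 and chr17:78359618-78359917, do not adjoin, and the stretch between them was not read. Their lack of a match therefore does not show that the SOCS3 promoter lacks the motif.

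Levels were given as FPKM, fragments per kilobase of transcript scaled to the mapped fragments of the library, a unit per length that allows levels of different genes to be compared. Of the 9 members, 8 averaged 1 FPKM or more over the 12 libraries and entered the fit over 11929 genes; CISH did not. SOCS2-AS1 passed this filter only through the siRNA groups. Within each row the values of a group had been sorted as text strings, in all rows with 3 different values, so which library a value came from is unknown. Group means and spreads do not depend on that sorting, and the values of a group are given here from low to high. In bulk RNA, fewer cells that express a gene and less RNA per cell cannot be told apart.

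The cells and the targets were checked in the same table. The 5 mesenchymal markers of the line (VIM, CD44, AXL, MSN and CAV1) stood between 118 and 2836 FPKM in all group means. Of luminal markers, ESR1, PGR, ESRP1 and CDH1 were under 1 FPKM in at least 3 of 4 groups, with EPCAM at up to 8.23 FPKM and GATA3 at up to 6.74 FPKM. Of white blood cell markers, CD14 averaged 2.87 FPKM with the EZH2 shRNA, 3.90 FPKM with the scramble shRNA, 0.867 FPKM in libraries labelled ZRANB1 siRNA and 0.243 FPKM with the scramble siRNA, while PTPRC and CD3E were at or near 0. The means of 3 endothelial markers summed to between 0.345 and 1.63 FPKM, mostly PECAM1. CD14 and the endothelial sum were higher in both shRNA groups than in both siRNA groups, and their part in the results was not tested. EZH2 was at 16.5 ± 0.681 FPKM (SD, n = 3) with the EZH2 shRNA, against 35.4 ± 1.07 FPKM with the scramble shRNA, with an adjusted p of 1.34e-05 by limma. ZRANB1 was at 10.0 ± 1.31 FPKM in libraries labelled ZRANB1 siRNA, against 11.4 ± 0.795 FPKM with the scramble siRNA, with an adjusted p of 0.349 by limma; EZH2 was also lower there, averaging 30.4 ± 2.08 FPKM, where the scramble siRNA group averaged 48.6 ± 2.1 FPKM (adjusted p = 5.43e-05 by limma). A lower ZRANB1 transcript was thus not shown, and directions below are those of libraries carrying that label.

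SOCS2 had the widest range of the family in FPKM. It was at 4.29, 4.53 and 6.06 FPKM with the EZH2 shRNA, against 1.84, 2.49 and 2.50 FPKM with the scramble shRNA. It was at 23.8, 23.9 and 26.8 FPKM in libraries labelled ZRANB1 siRNA, against 49.1, 49.8 and 56.0 FPKM with the scramble siRNA. No value of an siRNA library overlapped one of an shRNA library, and neither the EZH2 shRNA group nor the libraries labelled ZRANB1 siRNA overlapped with their own control. The mean was 2.18 times the control level with the EZH2 shRNA and 48.1% of the control level in libraries labelled ZRANB1 siRNA. On the log2(FPKM + 1) scale the differences were 0.86 with the EZH2 shRNA and -1.03 in libraries labelled ZRANB1 siRNA, each with a standard error of 0.12. Between the controls the gap was larger: SOCS2 averaged 51.6 ± 3.82 FPKM with the scramble siRNA and 2.28 ± 0.378 FPKM with the scramble shRNA (SD, n = 3 each), a ratio of 22.7 and a log2 difference of 4.01 with a standard error of 0.12.

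SOCS2-AS1, a noncoding RNA transcribed from the opposite strand at the start of SOCS2, stood in the same order of groups at lower levels. It was at 0.259, 0.674 and 0.692 FPKM with the EZH2 shRNA, against 0, 0 and 0.186 FPKM with the scramble shRNA. It was at 1.67, 1.77 and 2.04 FPKM in libraries labelled ZRANB1 siRNA, against 5.66, 5.90 and 6.39 FPKM with the scramble siRNA. As for SOCS2, the 4 groups did not overlap. The log2 difference was 0.53 with the EZH2 shRNA and -1.30 in libraries labelled ZRANB1 siRNA, with a standard error of 0.13 each; at such low levels the added 1 FPKM holds the first of these down, and with 0.1 FPKM added it was 2.09. In GENCODE release 29 both genes share 277 exonic bases on opposite strands, which is 4.09% of those of SOCS2 and 7.26% of those of SOCS2-AS1. The strand setting of the authors' counting is not given in the sources used here, so reads of the pair cannot be told apart there. The ratio of SOCS2 to SOCS2-AS1 means was 9.16 with the EZH2 shRNA, 13.6 in libraries labelled ZRANB1 siRNA and 8.63 with the scramble siRNA; none is given for the scramble shRNA, where 2 of the 3 SOCS2-AS1 values were 0.

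**Figure D1:**
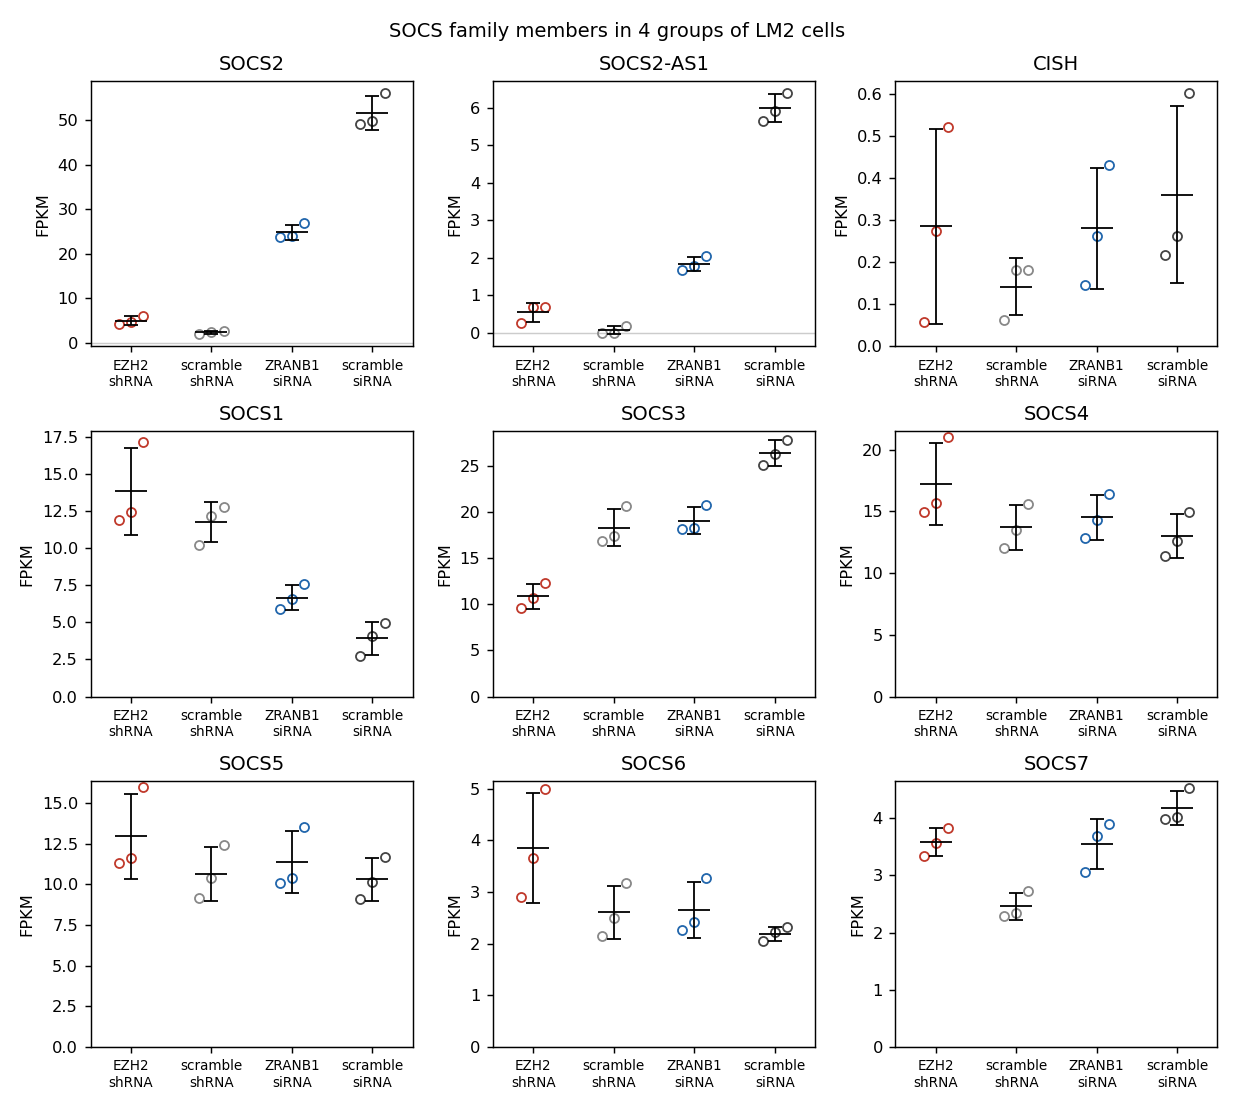
FPKM of the 9 SOCS family members in the 4 groups. Circles are the 3 values of a group, set from low to high; the horizontal bar is the mean and the whiskers are 1 SD. SOCS2 and SOCS2-AS1 are highest with the scramble siRNA, at means of 51.6 and 5.98 FPKM, and SOCS1 is lowest there, at 3.94 FPKM.

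SOCS3, the main inhibitor of signalling through the IL-6 receptor chain gp130, stood lower with the EZH2 shRNA, and in libraries labelled ZRANB1 siRNA, than in the matching scramble group. It was at 9.64, 10.7 and 12.3 FPKM with the EZH2 shRNA, against 16.9, 17.4 and 20.6 FPKM with the scramble shRNA. It was at 18.2, 18.2 and 20.7 FPKM in libraries labelled ZRANB1 siRNA, against 25.1, 26.2 and 27.8 FPKM with the scramble siRNA. Neither pair of groups overlapped, whereas the libraries labelled ZRANB1 siRNA overlapped with the scramble shRNA group. The level was 59.3% of the control with the EZH2 shRNA, a log2 difference of -0.70, and 72.2% of the control in libraries labelled ZRANB1 siRNA, a log2 difference of -0.45, with a standard error of 0.10 each. The 2 controls differed by 0.51 on the log2 scale, with the higher level in the scramble siRNA group.

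SOCS1, an inhibitor of interferon and other JAK signalling, ran the other way between deliveries. It was at 11.9, 12.4 and 17.1 FPKM with the EZH2 shRNA, against 10.2, 12.2 and 12.8 FPKM with the scramble shRNA. It was at 5.86, 6.55 and 7.57 FPKM in libraries labelled ZRANB1 siRNA, against 2.76, 4.08 and 4.97 FPKM with the scramble siRNA. The shRNA groups overlapped and the siRNA groups did not. The log2 difference was 0.65 with a standard error of 0.18 in libraries labelled ZRANB1 siRNA, a mean 1.69 times that of the control, and 0.21 with a standard error of 0.18 with the EZH2 shRNA. SOCS1 averaged 33.6% of the scramble shRNA level with the scramble siRNA, a log2 difference of -1.39. In GENCODE release 29 SOCS1 lies within RMI2 on the other strand, with 0 shared exonic bases.

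CISH, the founding member of the family and a target of STAT5, was the lowest protein-coding member in all 4 groups. It was at 0.0582, 0.275 and 0.523 FPKM with the EZH2 shRNA, against 0.0634, 0.181 and 0.182 FPKM with the scramble shRNA. It was at 0.147, 0.263 and 0.433 FPKM in libraries labelled ZRANB1 siRNA, against 0.218, 0.262 and 0.603 FPKM with the scramble siRNA. Both pairs overlapped, and all 12 values lay under 1 FPKM. CISH shares 218 exonic bases with MAPKAPK3 on the opposite strand, so part of these low values could belong to that gene, which was not tested.

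SOCS7, which binds insulin receptor substrates, was at 3.34, 3.56 and 3.83 FPKM with the EZH2 shRNA, against 2.29, 2.35 and 2.73 FPKM with the scramble shRNA. It was at 3.06, 3.70 and 3.91 FPKM in libraries labelled ZRANB1 siRNA, against 3.99, 4.03 and 4.53 FPKM with the scramble siRNA. Neither pair overlapped, and the directions were opposite. The log2 differences were smaller than those of SOCS2, at 0.41 with the EZH2 shRNA and -0.19 in libraries labelled ZRANB1 siRNA, with a standard error of 0.096 each, and only the first was called.

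In the 3 comparisons, no log2 difference of SOCS4, SOCS5 or SOCS6 went beyond 0.42. Each other member in the fit had a larger one in some comparison. SOCS4, which acts on the epidermal growth factor receptor, averaged 17.2 ± 3.31 FPKM with the EZH2 shRNA, against 13.7 ± 1.82 FPKM with the scramble shRNA (SD, n = 3 each). It averaged 14.5 ± 1.82 FPKM in libraries labelled ZRANB1 siRNA, against 13.0 ± 1.81 FPKM with the scramble siRNA. SOCS5, which acts on the same receptor, averaged 13.0 ± 2.63 FPKM with the EZH2 shRNA, against 10.7 ± 1.67 FPKM with the scramble shRNA. It averaged 11.4 ± 1.91 FPKM in libraries labelled ZRANB1 siRNA, against 10.3 ± 1.32 FPKM with the scramble siRNA. SOCS6, which binds insulin and stem cell factor receptors, averaged 3.85 ± 1.06 FPKM with the EZH2 shRNA, against 2.60 ± 0.519 FPKM with the scramble shRNA. It averaged 2.65 ± 0.544 FPKM in libraries labelled ZRANB1 siRNA, against 2.19 ± 0.137 FPKM with the scramble siRNA. SOCS5 shares 160 exonic bases with LINC01118 on the same strand in GENCODE release 29, or 2.11% of its own, and reads there cannot be assigned by strand. For these 3 genes the groups overlapped in each of the 3 comparisons, and with the EZH2 shRNA the log2 differences were 0.30 for SOCS4, 0.25 for SOCS5 and 0.42 for SOCS6. GENCODE release 29 lists processed pseudogenes of SOCS2 and SOCS5, so the levels of these genes are uncertain where reads match both.

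With the EZH2 shRNA, 4 of the 8 members in the fit were called by limma, SOCS2, SOCS2-AS1 and SOCS7 higher and SOCS3 lower; over all genes tested 6.41% were called, 3.39% higher and 3.03% lower. The values of these 4 did not overlap with the control, as for 22.1% of all genes. In libraries labelled ZRANB1 siRNA, 4 of 8 were called, SOCS1 higher and SOCS2, SOCS2-AS1 and SOCS3 lower, where 16.6% of all genes were called, 10.1% higher and 6.5% lower; 5 of 9 did not overlap, against 36.4% of all genes. With the scramble siRNA against the scramble shRNA, 5 of 8 were called, SOCS2, SOCS2-AS1, SOCS3 and SOCS7 higher and SOCS1 lower, where 50.6% of all genes were called, 25.5% higher and 25.1% lower; 6 of 9 did not overlap, against 59.9% of all genes. Since these comparisons chose the family and share the scramble groups, nothing is read from these counts. The mean of the libraries labelled ZRANB1 siRNA lay between those of the scramble siRNA and EZH2 shRNA groups for 7 of 9 members, all but CISH and SOCS7, and for 72.3% of the genes tested.

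**Figure D2:**
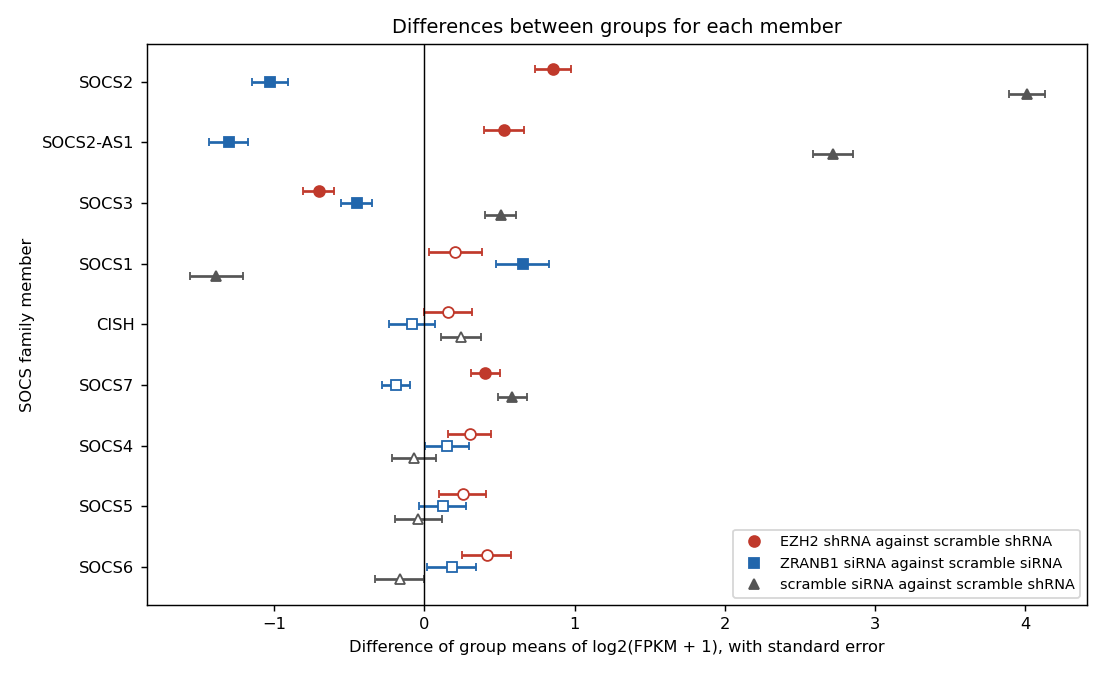
Differences of group means of log2(FPKM + 1) for each member in 3 comparisons, with standard errors (from the fit across all genes; for CISH, which was not in the fit, from its own values). Filled symbols were called at an adjusted p below 0.05. On this scale SOCS2 has the widest spread, from -1.03 in libraries labelled ZRANB1 siRNA to 4.01 between the scramble controls. With 0.1 FPKM added in place of 1, SOCS2-AS1 spread wider, from -1.66 to 5.42, and SOCS2 reached 4.46 between the controls.

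The order of the 8 protein-coding members differed between the groups, also within a delivery. With the EZH2 shRNA, SOCS4 led, then SOCS1, SOCS5 and SOCS3, each overlapping with the next. SOCS2, SOCS6 and SOCS7 followed, again overlapping, and CISH came last. With the scramble shRNA, SOCS3 led without overlap, followed by SOCS4, SOCS1 and SOCS5, which overlapped, then SOCS6, SOCS7 and SOCS2, which overlapped, and CISH. In libraries labelled ZRANB1 siRNA the order was SOCS2, SOCS3, SOCS4, SOCS5, SOCS1, SOCS7, SOCS6 and CISH, with overlap only between SOCS4 and SOCS5 and between SOCS7 and SOCS6. With the scramble siRNA the order was the same except that SOCS7 preceded SOCS1, and the overlapping neighbours were SOCS4 with SOCS5 and SOCS7 with SOCS1. The group means of the 8 summed to 67.5 FPKM with the EZH2 shRNA, 61.9 FPKM with the scramble shRNA, 82.9 FPKM in libraries labelled ZRANB1 siRNA and 112 FPKM with the scramble siRNA. SOCS2 made up 7.34% of this sum with the EZH2 shRNA and 3.68% with the scramble shRNA. It made up 30.0% in libraries labelled ZRANB1 siRNA and 46.1% with the scramble siRNA.

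**Figure D3:**
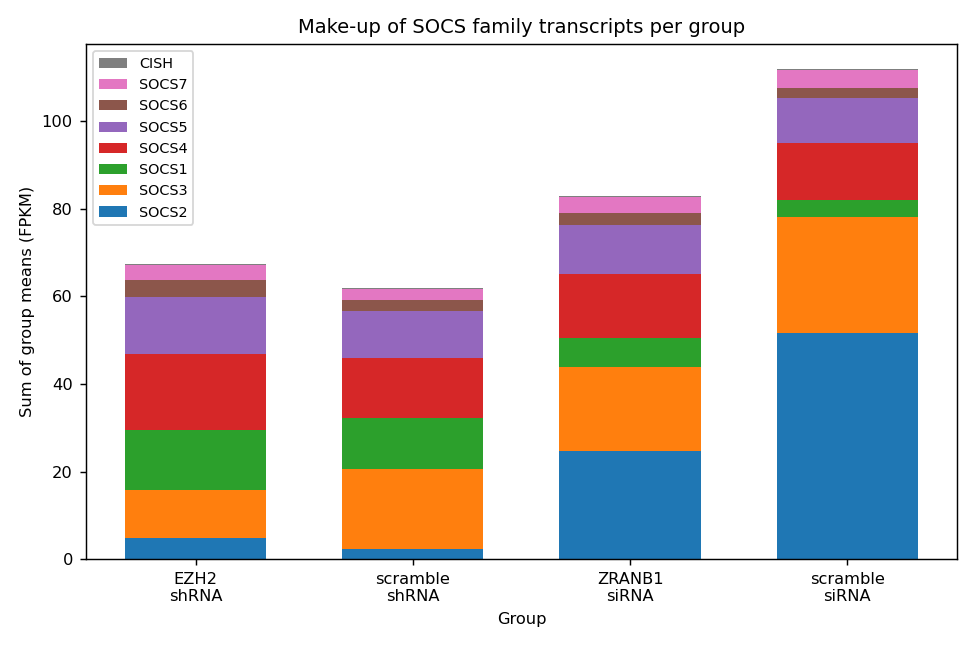
Sum of the group means (FPKM) of the 8 protein-coding members, stacked by gene, in the 4 groups. The sum is highest with the scramble siRNA, at 112 FPKM, of which SOCS2 is 46.1%, and lowest with the scramble shRNA, at 61.9 FPKM.

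The genes nearest to SOCS2 on chromosome 12 were looked at after their values were seen. With the scramble siRNA against the scramble shRNA, the 6 nearest genes in the fit, 3 on each side in RefSeq's order, were all called higher by limma, with a median log2 difference of 0.77 and a range from 0.27 to 1.46. CRADD, an adaptor in apoptosis signalling and the next gene after SOCS2, averaged 32.5 ± 0.821 FPKM with the scramble siRNA and 11.2 ± 1.49 FPKM with the scramble shRNA (SD, n = 3 each). It was the 1 neighbour called in libraries labelled ZRANB1 siRNA, at 21.0 ± 1.37 FPKM, with a log2 difference of -0.61 from the scramble siRNA. UBE2N, which encodes a ubiquitin-conjugating enzyme, averaged 86.8 ± 11.2 FPKM with the scramble siRNA and 50.7 ± 6.27 FPKM with the scramble shRNA. With the EZH2 shRNA, 0 of the 6 were called by limma (0 at an unadjusted p below 0.05), and their median was 0.0051. Around the other 7 protein-coding members, 1 to 4 of 6 neighbours were called higher in the comparison of scramble groups, against 25.5% of all genes.

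**Figure D4:**
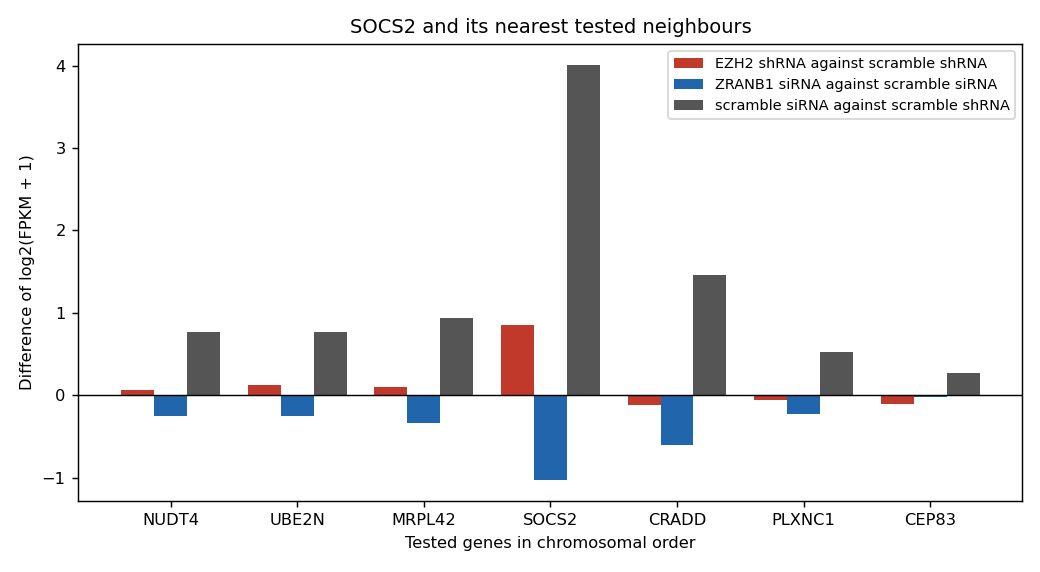
Differences of log2(FPKM + 1) for SOCS2 and the 3 nearest genes in the fit on each side, in chromosomal order, for 3 comparisons. Bars of the scramble siRNA against the scramble shRNA are above 0 for all 7 genes, from 0.27 for CEP83 to 4.01 for SOCS2.

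Genes with the group means most like those of SOCS2 and SOCS3 were found by the distance between group means of log2(FPKM + 1), each centred on its own mean, over the 4 group means. Nearest to SOCS2 came SCD, which encodes stearoyl-CoA desaturase, at a distance of 0.37, where the median gene was at 3.21. SCD averaged 17.7 ± 0.213 FPKM with the EZH2 shRNA, against 11.1 ± 0.695 FPKM with the scramble shRNA. It averaged 110 ± 5.43 FPKM in libraries labelled ZRANB1 siRNA, against 225 ± 13.0 FPKM with the scramble siRNA. B4GALNT4, a glycosyltransferase gene, followed at 0.58, and then the small nucleolar RNA gene SNORD26 at 0.72, whose values had an SD above its mean in both siRNA groups. Nearest to SOCS3 were JUP, which encodes plakoglobin, at 0.080, EVI2A at 0.11 and the nicotinamide methyltransferase gene NNMT at 0.12, where the median gene was at 0.89. NNMT averaged 14.3 ± 0.789 FPKM with the EZH2 shRNA, against 23.6 ± 1.52 FPKM with the scramble shRNA. It averaged 27.2 ± 0.979 FPKM in libraries labelled ZRANB1 siRNA, against 34.2 ± 1.51 FPKM with the scramble siRNA.

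The genes that act upstream of, beside and below SOCS proteins were taken from 10 lists with 116 genes, of which 77 were in the fit. These lists were chosen with earlier results of these data known. The shares and p-values given for them below therefore describe these genes and are no independent evidence of a pathway effect. With the EZH2 shRNA, 8 of the 77 rose and 2 fell, 13.0% against 6.41% of all genes tested. Receptor tyrosine kinases and insulin receptor substrates had 3 of 6 higher and 0 lower, with a median log2 difference of 0.23, against -0.014 over all genes. EGFR was at 31.3 ± 2.99 FPKM with the EZH2 shRNA, against 19.7 ± 0.973 FPKM with the scramble shRNA (SD, n = 3), with an adjusted p of 0.000746 by limma. IGF1R was at 15.5 ± 0.366 FPKM with the EZH2 shRNA, against 11.7 ± 0.605 FPKM with the scramble shRNA (adjusted p = 0.00465 by limma). INSR was at 5.32 ± 0.670 FPKM with the EZH2 shRNA, against 3.61 ± 0.0593 FPKM with the scramble shRNA (adjusted p = 0.0133 by limma). Of 11 STAT3- and STAT5-responsive genes, 1 fell, the AP-1 gene FOS, at 1.79 ± 0.373 FPKM with the EZH2 shRNA, against 3.34 ± 0.242 FPKM with the scramble shRNA (adjusted p = 0.00789 by limma).

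Other inhibitors of JAK-STAT signalling had 2 higher and 1 lower of 9 with the EZH2 shRNA. The SUMO ligase gene PIAS2 rose to 4.64 ± 0.322 FPKM with the EZH2 shRNA, against 2.68 ± 0.327 FPKM with the scramble shRNA (adjusted p = 0.00561 by limma). The phosphatase gene PTPN11 rose to 65.8 ± 5.07 FPKM with the EZH2 shRNA, against 49.0 ± 4.01 FPKM with the scramble shRNA (adjusted p = 0.0197 by limma). PTPN1, another phosphatase gene, fell to 40.8 ± 3.63 FPKM with the EZH2 shRNA, against 49.1 ± 1.02 FPKM with the scramble shRNA (adjusted p = 0.044 by limma). The cytokine IL11, the receptor chain LIFR and the receptor chain IL7R were each the 1 gene called higher in its list, with log2 differences of 0.29, 0.62 and 0.55; 0 were lower of 6 IL-6 family cytokines, 5 receptor chains of that family and 11 other cytokine receptor chains. Of 3 JAKs, 6 STATs, 5 SOCS box ligase partners and 15 other SOCS box proteins, 0 were called by limma; at an unadjusted p below 0.05 these lists held 0 JAKs, 1 STAT, 0 partners and 3 other SOCS box proteins. The calls of IL11, IL7R, LIFR, PTPN1 and PTPN11 were lost in at least 1 fit that left a value out. With only the 6 values of these groups in the fit, 2 of the 77 were called, and with a filter at 5 FPKM 5 of 64; with a value of either group left out in turn, the count ran from 5 to 9.

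In libraries labelled ZRANB1 siRNA, 19 of the 77 rose and 4 fell, 29.9% against 16.6% of all genes. Cytokines of the IL-6 family, whose signalling through gp130 is inhibited by SOCS3, had 5 of 6 higher. Their median log2 difference was 1.34, against -0.017 over all genes. IL6 was at 105 ± 9.70 FPKM in libraries labelled ZRANB1 siRNA, against 2.15 ± 0.272 FPKM with the scramble siRNA (adjusted p = 1.03e-11 by limma). IL11 was at 191 ± 8.64 FPKM in libraries labelled ZRANB1 siRNA, against 53.8 ± 2.94 FPKM with the scramble siRNA (adjusted p = 2.82e-08 by limma). EBI3, a subunit of IL-27 and IL-35, was at 11.1 ± 1.84 FPKM in libraries labelled ZRANB1 siRNA, against 0.370 ± 0.117 FPKM with the scramble siRNA (adjusted p = 1.68e-08 by limma). In this comparison SOCS3 stood lower and SOCS1 higher, as given above, and a link to the cytokine levels was not tested.

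Of the 5 receptor chains of the IL-6 family 2 rose in libraries labelled ZRANB1 siRNA, IL6ST, which encodes gp130, and IL27RA. IL6ST was at 46.4 ± 6.09 FPKM in libraries labelled ZRANB1 siRNA, against 25.0 ± 3.80 FPKM with the scramble siRNA (adjusted p = 0.00204 by limma). Other cytokine receptor chains had 4 of 11 higher and 0 lower, among them IL7R with a log2 difference of 1.29, IL13RA2 with 0.89 and IL13RA1 with 0.81. JAK1 was the 1 of 3 JAKs called, at 24.3 ± 0.637 FPKM in libraries labelled ZRANB1 siRNA, against 17.6 ± 1.36 FPKM with the scramble siRNA (adjusted p = 0.0013 by limma). Of 6 STATs, 0 were called by limma (1 at an unadjusted p below 0.05); STAT3 averaged 36.9 ± 0.963 FPKM in libraries labelled ZRANB1 siRNA, against 36.4 ± 1.26 FPKM with the scramble siRNA.

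STAT3- and STAT5-responsive genes had 4 higher and 1 lower of 11 in libraries labelled ZRANB1 siRNA. The interferon regulatory factor gene IRF1 rose by 0.82 on the log2 scale, the metalloproteinase inhibitor gene TIMP1 by 0.82 and the NF-kB cofactor gene BCL3 by 0.98. Other inhibitors had 1 higher and 2 lower of 9: the JAK2-binding adaptor gene SH2B3 rose by 0.66, while the log2 differences of PIAS3 and PTPN11 were -0.48 and -0.44. Other SOCS box proteins had 2 higher and 1 lower of 15; ASB2 was at 5.85 ± 0.764 FPKM in libraries labelled ZRANB1 siRNA, against 0.962 ± 0.278 FPKM with the scramble siRNA (adjusted p = 6.87e-06 by limma), SPSB1 rose by 0.52 and RAB40B was lower, with a log2 difference of -0.34. Of 5 ligase partners and 6 receptor tyrosine kinases and substrates, 0 were called by limma, with 0 partners and 1 receptor or substrate at an unadjusted p below 0.05. The call of RAB40B was lost in fits that left a value out.

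The scramble siRNA control differed from the scramble shRNA control in 45 of the 77 genes, 17 higher and 28 lower, 58.4% against 50.6% of all genes. IL6 averaged 2.15 ± 0.272 FPKM in the scramble siRNA group, against 202 ± 6.88 FPKM in the scramble shRNA group, and 5 of 6 IL-6 family cytokines were lower, among them EBI3 and IL11 with log2 differences of -4.37 and -2.48. Receptor chains were lower in 7 of 11 of the wider list, with -1.62 for IL7R, -1.44 for IL13RA1 and -0.98 for IL13RA2, and IL6ST and IL27RA stood at -1.20 and -0.40, while LIFR was higher by 0.36. JAK1 stood at -1.07. STAT5A and STAT5B were higher with the scramble siRNA, by 0.55 and 0.52, and STAT6 was lower, with a log2 difference of -0.21. Other inhibitors had 4 higher and 1 lower of 9, with PTPN11 and PIAS3 higher by 1.01 and 0.35 and SH2B3 at -1.05. RNF7 and TCEB2, partners of the SOCS box, were higher by 0.55 and 0.37. Other SOCS box genes had 4 higher and 4 lower of 15, with WSB2 and RAB40B higher by 1.47 and 0.92 and ASB2 at -2.83. Of 6 receptor tyrosine kinases and substrates, EGFR was higher by 0.55 and IGF1R lower, with a log2 difference of -0.18. STAT3- and STAT5-responsive genes had 2 higher and 6 lower of 11: MYC and BCL2L1 were higher by 0.77 and 0.56, and IRF1, BCL3 and TIMP1 were among the lower, with -1.50, -1.48 and -1.25. The calls of LIFR, STAT6, RNF7, TCEB2 and IGF1R were lost in at least 1 fit that left a value out. Delivery, culture and library preparation cannot be told apart in this comparison, and each targeting reagent is read against the scramble control of its own delivery for that reason.

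**Figure D5:**
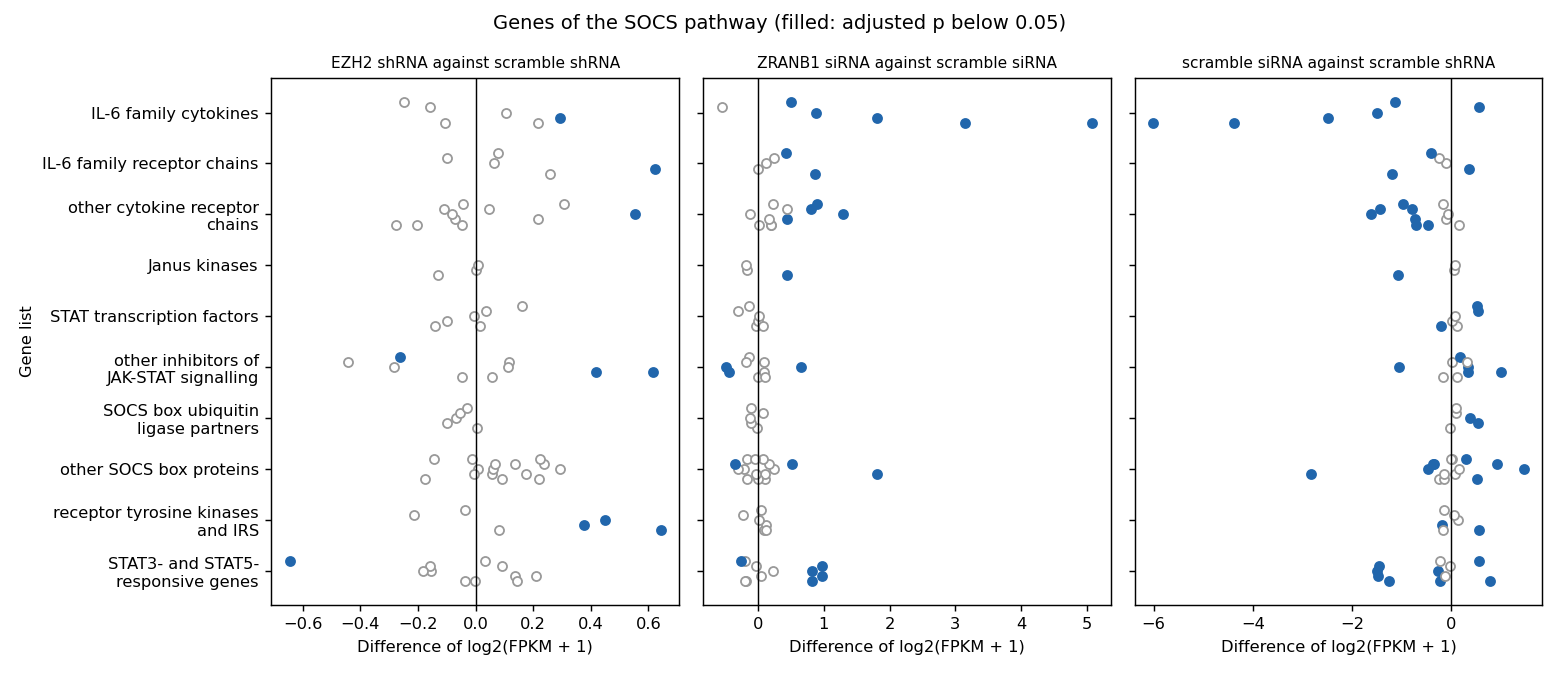
Differences of log2(FPKM + 1) for the 77 genes in the fit of 10 lists around SOCS signalling, in 3 comparisons; each point is a gene and filled points were called at an adjusted p below 0.05. The horizontal scales differ between panels: the widest differences are 0.64 for EGFR and -0.64 for FOS with the EZH2 shRNA, 5.08 for IL6 in libraries labelled ZRANB1 siRNA and -6.01 for IL6 between the scramble groups.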

How the data were processed

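FPKM values of 12 libraries were deposited in 1 table. Per the submitters' processing notes, hg19 was the build, and the tools were TopHat2 2.1.1 and SAMtools, with Cufflinks 2.2.1 and Cuffdiff 2.2.1. Their options, the annotation, the strand setting and any scaling of libraries were not described. No counts were at hand, so depth is unknown, and 3 values per group limit the precision. The labels do not say that the libraries came from separate cultures, so p-values measure only the spread among these samples, and that spread may be technical.

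Where a symbol had several rows, only that with the highest mean entered. The test was limma 3.58.1 (R 4.3.3) on log2(FPKM + 1) for the 11929 genes averaging 1 FPKM or more, fitting a mean for each of the 4 groups and a variance prior that follows intensity, with Benjamini-Hochberg adjustment across these genes. Called means an adjusted p below 0.05. Fold changes on this scale understate those of low genes. The fit was tested on simulated data. Other settings tried were an added 0.1 FPKM, 2 other filters (none, and 5 FPKM), a fit of only the 6 compared values, no variance trend, a scaling factor for each group, and rows summed by symbol. In further runs 1 value was left out per gene. For the fits the values of a group were first put in a seeded random order. For the members each value was left out in turn in the deposited order. Members and gene lists were chosen with earlier results of these data known. Named were all members, up to 3 called genes per list and comparison by adjusted p, and the 3 genes with group means nearest to SOCS2 and SOCS3 (CISH was too low); STAT3, MYC, BCL2L1 and the neighbours of SOCS2 were added after their values were seen. Promoters are from RefSeq (GRCh38.p14), exon overlaps from GENCODE release 29, and figures were drawn with matplotlib 3.10.9.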

Additional observations from a re-analysis of the deposited data

Results flagged for a closer look

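All values of SOCS2, SOCS2-AS1 and SOCS7 lay above their own control with the EZH2 shRNA and below their own control in libraries labelled ZRANB1 siRNA. These members were flagged for that reason, and the share of all genes with this pattern was not counted. In either direction, groups did not overlap for 22.1% of all genes with the EZH2 shRNA and for 36.4% in libraries labelled ZRANB1 siRNA. Nothing is read from the number of flagged members. The log2 difference was 0.86 with the EZH2 shRNA and -1.03 in libraries labelled ZRANB1 siRNA for SOCS2, 0.53 and -1.30 for SOCS2-AS1, and 0.41 and -0.19 for SOCS7. The difference of SOCS7 in libraries labelled ZRANB1 siRNA was not called. Whether the comparisons differ for these members was not tested, since both were in view when the family was chosen.

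The effect of the EZH2 shRNA minus that of the ZRANB1 siRNA was tested by limma's interaction term. It differed from 0 for 21 of the 77 genes around SOCS signalling (adjusted p below 0.05 over all genes). That was 27.3%, against 10.5% of all genes tested. The gene lists were chosen with earlier results of these data known, so nothing is read from these shares. The values below are those of 15 of the 25 genes named above in either comparison; the other 6 (LIF, CLCF1, JUNB, IL4R, IL10RB and ASB1) fell outside the rule for named genes. Among cytokines and receptors, the difference on the log2 scale was -4.86 for IL6, -3.25 for EBI3, -1.51 for IL11, -0.94 for IL13RA2, -0.77 for IL13RA1 and -0.73 for IL7R. Below the receptors it was -0.58 for JAK1, -0.54 for SH2B3, -1.75 for ASB2, -1.01 for IRF1 and -0.68 for TIMP1. It was 0.86 for PTPN11, 0.55 for EGFR, 0.53 for PIAS2 and 0.44 for INSR. In the first 11 genes the scramble siRNA control stood lower than the scramble shRNA control. In PTPN11, EGFR, PIAS2 and INSR it stood higher, by 1.01, 0.55, 0.35 and 0.13 on the log2 scale, of which that of INSR was not called. The part of the controls in all these differences was not tested.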

How the results depend on the processing

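Of the 13 member differences called in the comparisons above, 0 changed direction in the other settings. These were 0.1 FPKM added in place of 1, no filter or 1 at 5 FPKM, and a scaling factor for each group. Rows summed by symbol and a value left out in turn were the others. Most of these settings could not change a direction, so nothing is read from this. For each called difference the groups did not overlap, which fixes the direction with another pseudocount or a value left out. A filter does not alter the values of a member, and each member had only 1 row to sum. At 5 FPKM, SOCS2-AS1, SOCS6 and SOCS7 left the fit and gave no value. A pseudocount of 0.1 moved 7 differences by more than 1 SD, all of SOCS2, SOCS2-AS1 and SOCS7, without a change of direction; for SOCS2-AS1 between the scramble groups the value was 5.42 in place of 2.72. With 1 value left out, the log2 difference of SOCS2 ran from 0.73 to 0.94 with the EZH2 shRNA and from -1.08 to -0.97 in libraries labelled ZRANB1 siRNA, and that of SOCS3 from -0.79 to -0.62 and from -0.51 to -0.41. The count of 10 pathway genes called with the EZH2 shRNA fell to 5 with a filter at 5 FPKM, where 64 genes were tested, and to 2 with only the 6 values of the compared groups, where fewer values give the spread; with 1 value left out it ran from 5 to 9. In libraries labelled ZRANB1 siRNA it ran from 21 to 23 and between the scramble groups from 38 to 42, and these stayed within 1.5 times the main count in all settings tried. Of 54 named pathway differences, 14 missed the threshold in at least 1 setting and 0 changed direction; with the EZH2 shRNA these were FOS, IGF1R, IL11, IL7R, INSR, LIFR, PTPN1 and PTPN11. No paired analysis was possible because the values of a group stand in text order in each row, so that a column number names no replicate. The depth is unknown, so no limit of detection can be set for CISH or SOCS2-AS1.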
